A study of Schmidtea mediterranea with 35 samples.

Results

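Neoblasts are the dividing stem cells of planarian flatworms. The 16 transcripts described here were those of Schmidtea mediterranea neoblasts whose median level at day 13 lay far from the control after knockdown of zfp1 and near it after knockdown of p53, by fixed limits on both. They were chosen from the 25462 transcripts of the deposited table by the difference D, the log2 of a group's median RPKM + 1 minus that of the control group of the same day (RPKM, reads scaled by transcript length and library depth). D of zfp1 RNAi at day 13 was at least 1 or at most -1, D of p53 RNAi at day 13 lay between -0.4 and 0.4, D of zfp1 RNAi at day 6 was below 0.6, and the highest of the 9 group medians was at least 3 RPKM. 8 transcripts were higher and 8 were lower after zfp1 RNAi at day 13. Since days 13 and 6 chose them, values of these days are a description. Only day 9, which entered the rule through the floor of 3 RPKM alone, was tested.

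The RNA came from the X1 fraction, the Hoechst-bright cells in S, G2 or M phase that flow sorting sets apart and that are mostly neoblasts. Worms ate bacteria expressing double-stranded RNA of zfp1, of p53 or, as the non-targeting control, of unc22, and were sampled at days 6, 9 and 13 of RNAi. All groups came from the clonal line CIW4, fed on the same liver paste. The 35 libraries formed 9 groups, with 4 libraries in a group and 3 for unc22 at day 13. Whole reads recovered from the RPKM values summed to between 4391559 and 26115474 per library. 3 libraries stood apart, namely zfp1 day 6 replicate 1, zfp1 day 13 replicate 5 and unc22 day 13 replicate 5, with 4945, 5021 and 4546 transcripts at 0 against at most 3588 in any other library. The labels do not tie replicates to separate cultures or pools of worms, and the p-values therefore reflect library-to-library spread that could be technical. In sorted cell pools a lower level cannot be told apart from fewer cells that hold the transcript.

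In planarians zfp-1, a zinc finger gene, is known for its role in the neoblasts that give rise to the epidermis. The gene p53, the homolog of the vertebrate tumour suppressor, is known from the same lineage, and loss of either gene is known to deplete epidermal progeny. The question here was which transcripts separate the knockdowns. The table lists transcripts by identifier with no gene names and no annotation was used, so no role is given to any of the 16. The levels of zfp1, of p53 and of markers of other cell types were not analysed here.

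The limits on both knockdowns left a small part of the transcripts past the zfp1 threshold. Both D share the 3 control libraries of day 13, 1 of which stood apart, so the counts that follow describe the selection and nothing is read from them. Of 206 transcripts over the floor with a D of at least 1 after zfp1 RNAi at day 13, 194 had a D over 0.4 after p53 RNAi too, 2 had one below -0.4, and 10 lay between. Of 146 with a D of at most -1, 135 also had a D below -0.4 after p53 RNAi, 2 had one over 0.4, and 9 lay between. The limit on day 6 then removed 2 of the 10 and 1 of the 9. SMED30021179, the nearest higher transcript inside the threshold, had a D of 1.05 and the nearest outside 0.97. On the lower side the values were -1.01 inside and -0.997 outside, with 5 transcripts within 0.1 outside the threshold on each side. D of p53 RNAi at day 13 reached 0.39 inside and 0.41 outside among the higher transcripts, and -0.39 inside and -0.42 outside among the lower ones.

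At day 9, in the limma fit over all 19206 tested transcripts with Benjamini-Hochberg adjustment, 4 of the 8 transcripts of the higher set were called higher after zfp1 RNAi than in the control, where 2.16% of all tested transcripts were. They were SMED30010549, SMED30005998, SMED30032680 and SMED30019532, the last named after its values were seen. Of the 8 of the lower set, 1 was called lower, SMED30023292, where 1.07% of all tested transcripts were. All 16 passed the filter on low values. The log2 fold changes of the higher set had a median of 0.57 and 7 were positive, and those of the lower set had a median of -0.65 and 8 were negative, against a median of -0.01 over all tested transcripts. In 4 of the higher set every zfp1 library lay above every control library (6.43% of all tested), and in 3 of the lower set below (4.02%).

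p53 RNAi at day 9 was compared with the same control libraries. 1 of the higher set, SMED30005998, was called higher (1.85% of all tested transcripts), and 2 of the lower set, SMED30023292 and SMED30013526, were called lower (2.06%). Every p53 library lay above every control library for 2 of the higher set (4.85% of all tested) and below for 2 of the lower set (5.63%). The median log2 fold change was 0.22 in the higher set and -0.61 in the lower set, against -0.01 over all tested. The knockdowns were therefore also compared with each other. Zfp1 RNAi against p53 RNAi at day 9 called 1 of the higher set higher, SMED30010549, where 0.104% of all tested transcripts were. It called 0 of the lower set lower (0.0156%). The median log2 difference was 0.35 in the higher set, with 7 above 0. In the lower set it was 0.06, with 3 below 0, against 0.02 over all tested. The zfp1 libraries all lay above the p53 libraries for 1 of the higher set, SMED30010549, and for 1 of the lower set, SMED30013526 (4.16% of all tested), and all below for 0 of the 16 (2.42%). Of the higher set 3 had an unadjusted limma p under 0.05 with a higher level, where 4.32% of all tested transcripts had. Of the lower set 1 had one with a lower level, where 3.42% of all tested transcripts had. For the lower set limma-voom on the recovered reads also called 0. The name of the set, changes under zfp1 RNAi and not p53 RNAi, thus held at day 9 by a direct test for SMED30010549 alone. A p that misses the threshold does not show that the knockdowns acted alike on the other 15.

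**Figure D1:**
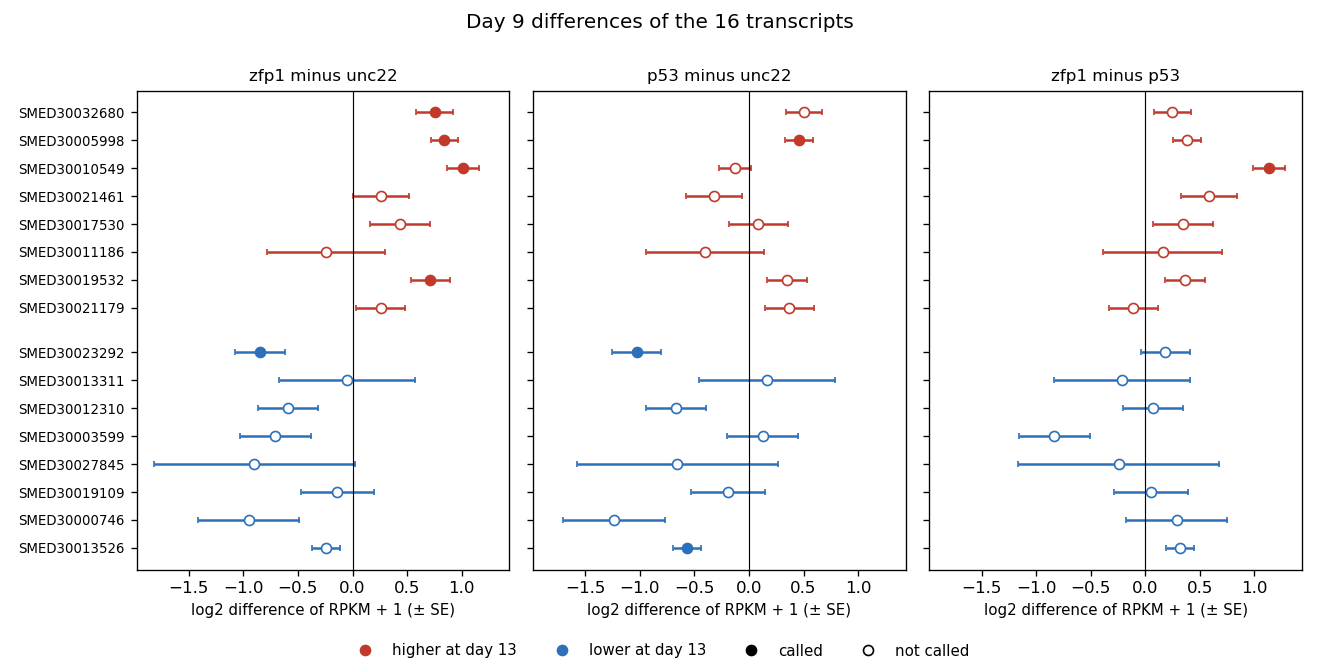
Log2 differences of RPKM + 1 at day 9 (x axis, points, with the standard error of limma as bars) for the 16 transcripts (y axis), in 3 panels: zfp1 minus unc22, p53 minus unc22 and zfp1 minus p53 RNAi. Filled points were called at an adjusted p under 0.05; in the right panel the only filled point is SMED30010549 at 1.13.

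SMED30010549 separated the knockdowns most clearly. At day 9 it was at 10.5, 11.8, 10.7 and 11.8 RPKM after zfp1 RNAi, at 5.87, 3.40, 4.63 and 4.60 RPKM after p53 RNAi, and at 5.31, 5.03, 4.47 and 5.47 RPKM in the control. Every zfp1 library lay above all libraries of the other groups, while p53 and control libraries overlapped. By limma, zfp1 RNAi exceeded the control by 1.01 ± 0.15 on the log2 scale (SE, limma adjusted p = 2.0e-05) and p53 RNAi by 1.13 ± 0.15 (SE, limma adjusted p = 4.4e-05). The change after p53 RNAi against control was -0.12 ± 0.15 (SE), not called.

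At day 13 the same transcript was at 9.92, 11.8, 11.6 and 8.94 RPKM after zfp1 RNAi, at 4.08, 4.31, 4.52 and 3.95 RPKM after p53 RNAi, and at 4.05, 3.92 and 2.51 RPKM in the control. The zfp1 libraries were the highest, with no overlap, but day 13 chose this transcript, so nothing is read from it. At day 6 it was at 6.04, 8.87, 8.14 and 6.70 RPKM after zfp1 RNAi, at 5.19, 4.97, 4.84 and 3.39 RPKM after p53 RNAi and at 6.79, 5.54, 5.66 and 5.13 RPKM in the control, where zfp1 replicates 1 and 4 overlapped the control, and replicate 1 is one of the libraries that stood apart. D of zfp1 RNAi was 0.35, 0.99 and 1.26 at days 6, 9 and 13. At least 31 reads stood behind each value.

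SMED30005998 was the highest of the 4 called transcripts in level. After zfp1 RNAi it was at 91.4, 61.3, 68.2 and 59.6 RPKM at day 6, at 77.5, 90.4, 63.1 and 60.5 RPKM at day 9 and at 72.2, 68.2, 62.7 and 56.7 RPKM at day 13. After p53 RNAi it was at 57.1, 55.7, 54.7 and 58.2 RPKM at day 6, at 50.9, 60.8, 56.1 and 52.3 RPKM at day 9 and at 21.5, 25.3, 21.2 and 22.6 RPKM at day 13. In the control it was at 44.5, 45.7, 43.6 and 51.2 RPKM at day 6, at 38.8, 46.0, 38.2 and 36.4 RPKM at day 9 and at 23.1, 24.2 and 22.0 RPKM at day 13. The zfp1 and control libraries did not overlap on any day. The control was lowest at day 13, while the zfp1 group stayed near its day 6 level. Days 6 and 13 chose this transcript, so nothing is read from that course.

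The p53 libraries thus lay above all control libraries at days 6 and 9 and overlapped them at day 13. At day 9 the log2 fold change against control was 0.84 ± 0.13 after zfp1 RNAi (SE, limma adjusted p = 3.3e-05) and 0.46 ± 0.13 after p53 RNAi (SE, limma adjusted p = 0.033). The difference between the knockdowns was 0.38 ± 0.13 (SE, limma adjusted p = 0.39), not called. The p53 call ended when p53 day 9 replicate 2, 3 or 4 was left out, with log2 fold changes of 0.41, 0.45 and 0.48, or unc22 day 9 replicate 1, 3 or 4, with 0.45, 0.44 and 0.42. It also ended in the fit on the day 9 libraries alone. Over the 16 alternatives its adjusted p ranged from 0.0029 to 0.13 (limma).

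SMED30032680 ran beside SMED30005998, a pair chosen after the values were seen. Among pairs within the higher set or within the lower set, their log2 difference varied least over the 35 libraries, with an SD of 0.31. The ratio of their RPKM values was 0.70 in the median library and 0.58 to 0.90 over the 32 libraries other than those that stood apart. SMED30032680 was at 53.7, 55.3, 42.5 and 41.5 RPKM after zfp1 RNAi at day 9, at 34.2, 46.0, 34.8 and 47.2 RPKM after p53 RNAi and at 28.6, 31.5, 26.7 and 25.4 RPKM in the control. Both knockdowns lay above the control without overlap, and overlapped each other. Whether the identifiers stand for 2 genes or for related assembly products is not given in the sources used here, and reads shared between such copies would make both values uncertain.

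At day 9 the log2 fold change of SMED30032680 was 0.75 ± 0.17 after zfp1 RNAi (SE, limma adjusted p = 0.0052) and 0.50 ± 0.17 after p53 RNAi (SE, limma adjusted p = 0.099). The p53 value was called in 2 of 16 alternatives. At day 13 it was at 50.4, 44.0, 43.1 and 53.1 RPKM after zfp1 RNAi, at 15.0, 21.0, 15.6 and 16.1 RPKM after p53 RNAi and at 18.4, 16.4 and 15.6 RPKM in the control. Its D of 1.47 at day 13 was the largest of the higher set, with 1.46 for SMED30005998. At day 6 it was at 20.5, 39.4, 39.6 and 44.9 RPKM after zfp1 RNAi and at 37.7, 28.3, 32.5 and 32.9 RPKM in the control. The low zfp1 value of day 6 came from replicate 1, which stood apart.

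SMED30019532 was weakly expressed. At day 9 it was at 3.38, 3.59, 4.04 and 4.36 RPKM after zfp1 RNAi, at 2.95, 1.94, 3.63 and 2.71 RPKM after p53 RNAi and at 1.63, 1.66, 2.24 and 2.33 RPKM in the control. The zfp1 libraries lay above the control without overlap and overlapped the p53 libraries, and the log2 fold change against control was 0.71 ± 0.18 (SE, limma adjusted p = 0.019). The call ended without unc22 day 9 replicate 1 or 2, with log2 fold changes of 0.66 and 0.66, and without zfp1 day 9 replicate 3 or 4, with 0.69 and 0.66. The adjusted p ranged from 0.012 to 0.082 over the 16 alternatives (limma). The log2 fold change was 0.34 with a pseudocount of 5 RPKM, which shrinks the differences of weakly expressed transcripts.

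SMED30021461 was the most abundant of the higher set, with a mean of 79.5 RPKM over all libraries. At day 13 it was at 90.2, 74.7, 80.4 and 106 RPKM after zfp1 RNAi, at 40.5, 35.0, 45.6 and 40.7 RPKM after p53 RNAi and at 39.7, 28.9 and 45.4 RPKM in the control. At day 9 it was at 112, 107, 77.8 and 79.1 RPKM after zfp1 RNAi, at 90.7, 51.2, 51.0 and 60.6 RPKM after p53 RNAi and at 88.6, 67.5, 76.4 and 76.8 RPKM in the control. The zfp1 libraries thus stood clear of both other groups at day 13 and overlapped them at day 9. The day 9 log2 fold change was 0.26 ± 0.26 against control (SE, limma adjusted p = 1.0) and 0.58 ± 0.26 against p53 RNAi (SE, limma adjusted p = 0.59). At day 6 its zfp1 libraries spread from 43.8 to 182 RPKM, with replicate 1, which stood apart, the highest, while the controls were between 92.1 and 111 RPKM.

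The other 3 of the higher set were SMED30021179, SMED30017530 and SMED30011186. None was called at day 9 in any of the 3 comparisons. SMED30021179 was at 3.51, 4.05, 4.34 and 3.77 RPKM after zfp1 RNAi at day 9 and at 2.79, 2.95, 2.91 and 3.86 RPKM in the control, which overlapped through control replicate 4. At day 13 its zfp1 libraries lay between 2.91 and 4.59 RPKM and the controls between 1.20 and 1.79 RPKM. The p53 libraries of that day lay between 0.576 and 1.95 RPKM. SMED30017530 had a day 9 log2 fold change of 0.43 ± 0.27 (SE). Its control at day 13 was at 0.389, 0.453 and 1.98 RPKM, the highest being replicate 5, which stood apart. The zfp1 libraries of that day, at 1.29 to 2.27 RPKM, overlapped the control and the p53 libraries, at 0.672 to 1.63 RPKM. SMED30011186, a short transcript of 256 bases, was at 10.2, 2.92, 20.7 and 22.6 RPKM after zfp1 RNAi at day 9. The control was then at 14.3, 4.14, 22.8 and 22.7 RPKM, an overlap throughout. At day 13 its zfp1 libraries, at 22.5 to 33.3 RPKM, overlapped the control, at 27.7, 11.4 and 7.30 RPKM. They also overlapped the p53 libraries, at 6.66 to 23.0 RPKM.

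The medians of the higher set were also followed across days. After zfp1 RNAi the day 13 median was above that of day 6 for 6 of 8 transcripts, with a median difference of 0.24 on the log2 scale, and below that of day 9 for 6 of 8, with -0.06. The day 13 median was below that of day 6 for 8 of 8 after p53 RNAi, with -1.03, and for 8 of 8 in the control, with -0.94. Over all tested transcripts 9901 of 19206 were lower in the control at day 13 than at day 6, with a median difference of -0.01. After p53 RNAi 9992 were lower, with -0.015. A low control at day 13 raises the D that chose these transcripts. The rule also held p53 RNAi near the control at day 13, so the fall after p53 RNAi does not stand apart from that of the control. Nothing is read from the day 13 levels. Between days 6 and 9 the zfp1 median was higher at day 9 for 6 of 8, with a median difference of 0.20. The control median was lower for 7 of 8, with -0.23. Over all tested transcripts 10171 of 19206 were higher at day 9 after zfp1 RNAi, with 0.02, and 9943 lower in the control, with -0.01. The limit on D at day 6 favours a low zfp1 or a high control level on that day, so nothing is read from these counts.

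**Figure D2:**
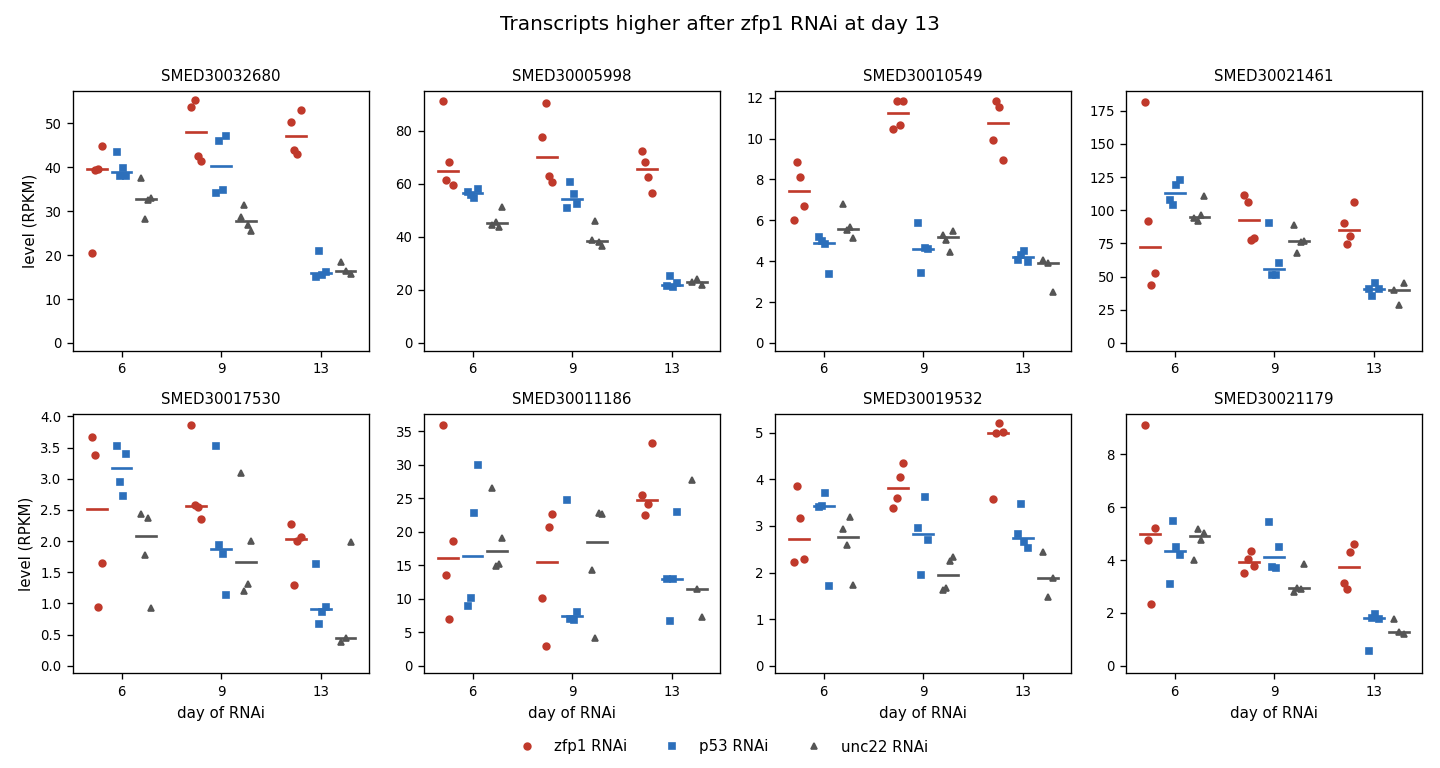
Levels in RPKM (y axis) of the 8 transcripts that were higher after zfp1 RNAi at day 13, by day of RNAi (x axis). Each point is a library, each bar a group median, with zfp1 RNAi left, p53 RNAi middle and the unc22 control right; for SMED30005998 the 4 zfp1 libraries of day 13 lie between 56.7 and 72.2 RPKM, and all p53 and control libraries of that day at or below 25.3 RPKM.

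Of the lower set, SMED30023292 had the largest D at day 13, -1.49. After zfp1 RNAi it was at 6.86, 6.00, 5.10 and 3.82 RPKM at day 6, at 6.66, 9.48, 4.67 and 5.32 RPKM at day 9 and at 7.60, 6.78, 5.70 and 6.64 RPKM at day 13. After p53 RNAi it was at 8.81, 5.10, 6.96 and 8.83 RPKM at day 6, at 6.28, 5.19, 7.62 and 3.43 RPKM at day 9 and at 18.0, 17.8, 12.9 and 17.7 RPKM at day 13. In the control it was at 10.6, 7.06, 8.78 and 12.7 RPKM at day 6, at 10.1, 16.5, 12.7 and 10.2 RPKM at day 9 and at 20.7, 14.6 and 28.9 RPKM at day 13. The zfp1 libraries lay below all control libraries on each day, and the gap was widest at day 13, where the control was highest. Day 13 chose this transcript, so nothing is read from the width of that gap.

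At day 9 the p53 libraries also lay below all controls, and at day 13 they overlapped them. The day 9 log2 fold change was -0.84 ± 0.23 after zfp1 RNAi (SE, limma adjusted p = 0.030) and -1.03 ± 0.23 after p53 RNAi (SE, limma adjusted p = 0.0048). The difference between the knockdowns was 0.18 ± 0.23 (SE, limma adjusted p = 0.91). The p53 call held in 16 of 16 alternatives. The zfp1 call held in 9 of 16 alternatives and ended, among others, without unc22 day 9 replicate 2 or 3, with log2 fold changes of -0.71 and -0.82, and without zfp1 day 9 replicate 1, 3 or 4, with -0.87, -0.72 and -0.77. It also ended in the fit on the day 9 libraries alone (limma adjusted p = 0.082).

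SMED30013526, named after its values were seen, had a day 9 level that was lower after p53 RNAi than after zfp1 RNAi. It was at 2.94, 3.32, 3.27 and 3.51 RPKM after zfp1 RNAi, at 2.35, 2.58, 2.60 and 2.11 RPKM after p53 RNAi and at 4.46, 3.97, 3.62 and 4.12 RPKM in the control. The groups did not overlap. Against control the log2 fold change was -0.24 ± 0.13 after zfp1 RNAi (SE, limma adjusted p = 0.70) and -0.56 ± 0.13 after p53 RNAi (SE, limma adjusted p = 0.0059), and the difference between the knockdowns was 0.32 ± 0.13 (SE, limma adjusted p = 0.54). With a pseudocount of 5 RPKM the p53 value was -0.29, still called. At day 13 it was at 2.48, 2.95, 2.73 and 2.36 RPKM after zfp1 RNAi, at 4.62, 3.14, 4.54 and 4.53 RPKM after p53 RNAi and at 8.02, 4.98 and 6.23 RPKM in the control, so the zfp1 libraries were the lowest and the p53 libraries lay between, all 4 below every control library.

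SMED30003599 was the member of the lower set with the largest negative difference from p53 RNAi at day 9, -0.84 ± 0.33 (SE, limma adjusted p = 0.53), not called. At day 9 it was at 3.08, 2.92, 4.89 and 4.35 RPKM after zfp1 RNAi, at 4.66, 9.48, 5.10 and 13.2 RPKM after p53 RNAi and at 9.45, 5.35, 6.11 and 6.65 RPKM in the control. The zfp1 libraries lay below all controls, and the log2 fold change of -0.71 ± 0.33 (SE, limma adjusted p = 0.50) was not called. At day 13 the zfp1 libraries were between 3.81 and 4.52 RPKM, the p53 libraries between 6.27 and 10.4 RPKM and the controls between 4.90 and 11.9 RPKM. The lowest control was replicate 5, which stood apart.

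SMED30012310 was at 1.22, 1.08, 0.747 and 4.63 RPKM after zfp1 RNAi at day 13, at 4.56, 2.91, 5.09 and 3.36 RPKM after p53 RNAi and at 3.34, 4.14 and 5.93 RPKM in the control. The highest zfp1 value was that of replicate 5, which stood apart and overlapped the other groups. At day 9 the levels were 1.10, 1.38, 0.775 and 0.672 RPKM after zfp1 RNAi, 0.959, 0.676, 1.01 and 0.845 RPKM after p53 RNAi and 0.983 to 3.56 RPKM in the control. Both knockdowns overlapped the control, and the log2 fold changes of -0.59 ± 0.27 and -0.67 ± 0.27 (SE) were not called.

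SMED30013311, a transcript of 168 bases with 1 to 59 reads per library, had a D of -1.30 at day 13. It was then at 6.03, 8.75, 2.47 and 0.890 RPKM after zfp1 RNAi, at 12.3, 13.0, 6.13 and 12.3 RPKM after p53 RNAi and between 9.96 and 18.0 RPKM in the control. Zfp1 libraries lay below the controls at day 13 and overlapped them at day 9, with 7.77, 11.7, 7.41 and 5.23 RPKM after zfp1 RNAi and 2.59, 15.3, 9.43 and 9.89 RPKM in the control. The day 9 log2 fold change was -0.05 ± 0.62 (SE), not called, and turned in sign when single libraries were left out.

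SMED30027845 was the most abundant of the 16, with a mean of 353 RPKM and 634 to 126805 reads per library. At day 13 it was at 106, 128, 843 and 145 RPKM after zfp1 RNAi, at 295, 187, 284 and 187 RPKM after p53 RNAi and at 190, 288 and 629 RPKM in the control. Zfp1 replicate 4 was above every library of the other groups, so the D of -1.07, which rests on medians, was not shared by all replicates. At day 6 the controls alone spread from 98.1 to 2728 RPKM. The day 9 log2 fold change was -0.90 ± 0.92 (SE, limma adjusted p = 1.0).

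SMED30000746 had the largest day 9 log2 fold change of the 16 after p53 RNAi, -1.24 ± 0.46 (SE, limma adjusted p = 0.17), not called. It was between 1.11 and 3.22 RPKM after zfp1 RNAi at day 9, at 2.57, 0.777, 2.85 and 0.227 RPKM after p53 RNAi and at 2.24, 5.68, 4.78 and 6.38 RPKM in the control. Both knockdowns overlapped the control. At day 13 it was at 0.910, 0.565 and 0.364 RPKM in zfp1 replicates 1, 2 and 4 and listed at 0 in replicate 5, which stood apart. It was then at 1.75, 6.13 and 1.99 RPKM in the control. The p53 libraries of that day, at 0.817, 2.69, 2.47 and 1.26 RPKM, overlapped the zfp1 libraries. D of zfp1 RNAi was already -0.88 at day 6, since the rule set no lower limit there. SMED30023292, with -0.71, was the other transcript beyond -0.6.

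The last of the lower set was SMED30019109, with 0 to 25 reads per library. At day 13 it was at 0.826, 1.47 and 1.89 RPKM in zfp1 replicates 1, 2 and 4 and listed at 0 in replicate 5. It was then at 6.36, 3.85, 3.77 and 2.17 RPKM after p53 RNAi and at 4.04, 3.39 and 1.47 RPKM in the control. At day 9 the zfp1 and control libraries overlapped, with a log2 fold change of -0.14 ± 0.34 (SE).

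For the lower set, the day 13 median was below that of day 6 for 6 of 8 transcripts after zfp1 RNAi, with a median log2 difference of -0.34. It was above for 7 of 8 after p53 RNAi, with 0.57, and for 6 of 8 in the control, with 0.53. Over all tested transcripts 9355 of 19206 were lower at day 13 than at day 6 after zfp1 RNAi. There 9200 were higher after p53 RNAi and 9293 in the control. The control of day 13 chose these transcripts as well, and the rule held p53 RNAi near it, so nothing is read from these counts. Between days 6 and 9, 4 control medians were higher and 4 lower. In length, as recovered from the RPKM values, the 16 transcripts ran from 168 to 3874 bases with a median of 698, against 1074.5 bases over all tested transcripts.

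**Figure D3:**
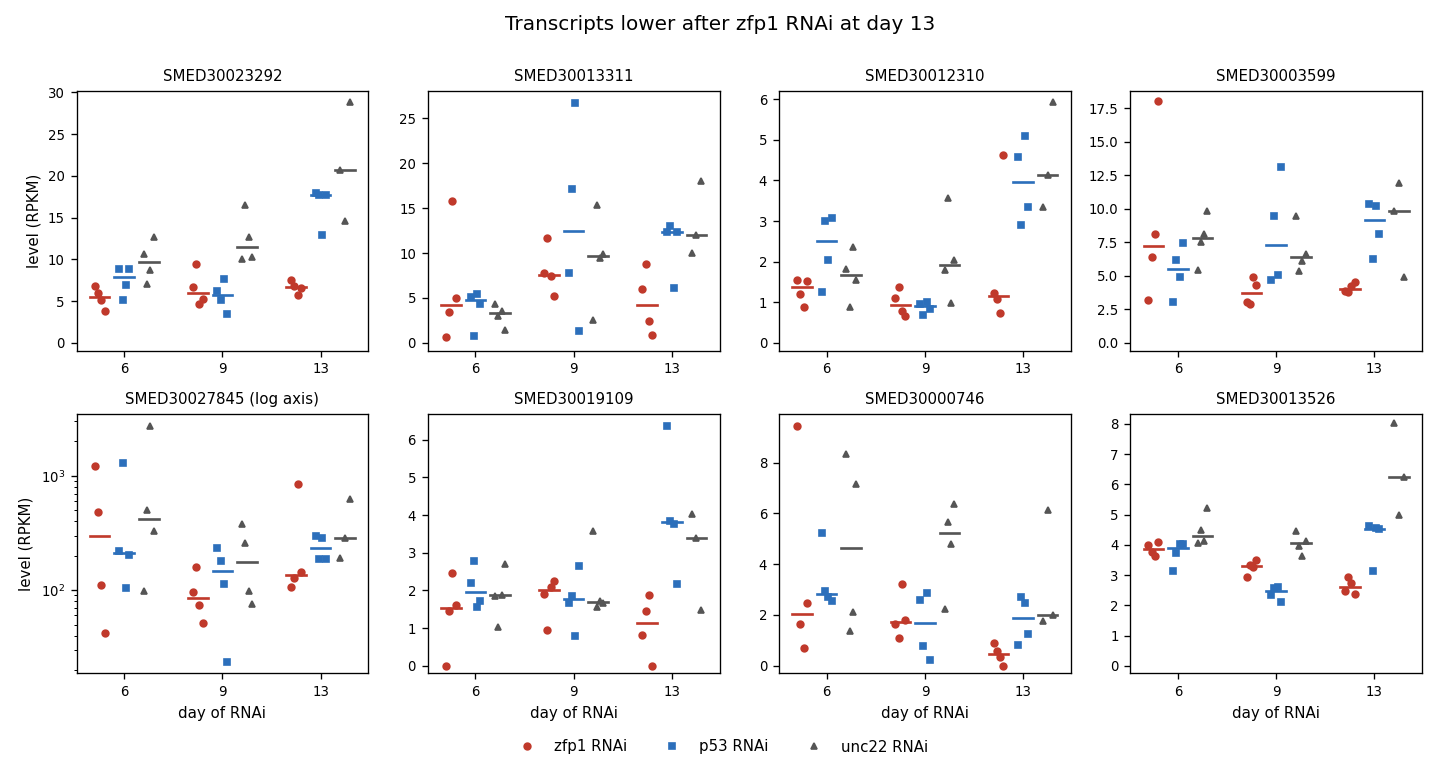
Levels in RPKM (y axis, logarithmic for SMED30027845) of the 8 transcripts that were lower after zfp1 RNAi at day 13, by day of RNAi (x axis). Each point is a library, each bar a group median, with zfp1 RNAi left, p53 RNAi middle and the unc22 control right; for SMED30023292 the zfp1 libraries stay between 3.82 and 9.48 RPKM on all days, while the controls reach 28.9 RPKM at day 13.

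By the same fit, the zfp1 contrasts that the rule had used called 6 of 8 higher (2.31% of all tested) and 3 of 8 lower (2.12%) at day 13, and 1 of 8 higher (0.422%) and 0 of 8 lower (0.880%) at day 6, from which nothing is read. The rule also used the p53 contrast of day 13. It called 0 of the higher set higher (8.96%) and 1 of the lower set lower (8.35%). The limit on D of p53 RNAi held these counts down in advance, so nothing is read from them. The 1 called was SMED30013526, with a log2 fold change of -0.50 (limma adjusted p = 0.011). Its D was within the limit of 0.4. Membership depended on single libraries. Leaving out 1 library of the 19 that the rule read kept SMED30010549, SMED30005998 and SMED30032680 of the higher set and SMED30012310 of the lower set in all 19 cases. Without the 3 libraries that stood apart, 10 higher and 12 lower transcripts met the rule, among them 5 and 3 of the 16. Without unc22 day 13 replicate 4, the count was 7 higher and 9 lower, with 3 and 2 of the 16 among them. Without zfp1 day 13 replicate 1 or 2, 18 and 17 higher and 15 and 17 lower transcripts met it. With unc22 day 13 replicate 5 left out 13 lower transcripts met it. Group means in place of medians gave 34 higher and 7 lower transcripts, with 4 and 1 of the 16 among them.

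**Figure D4:**
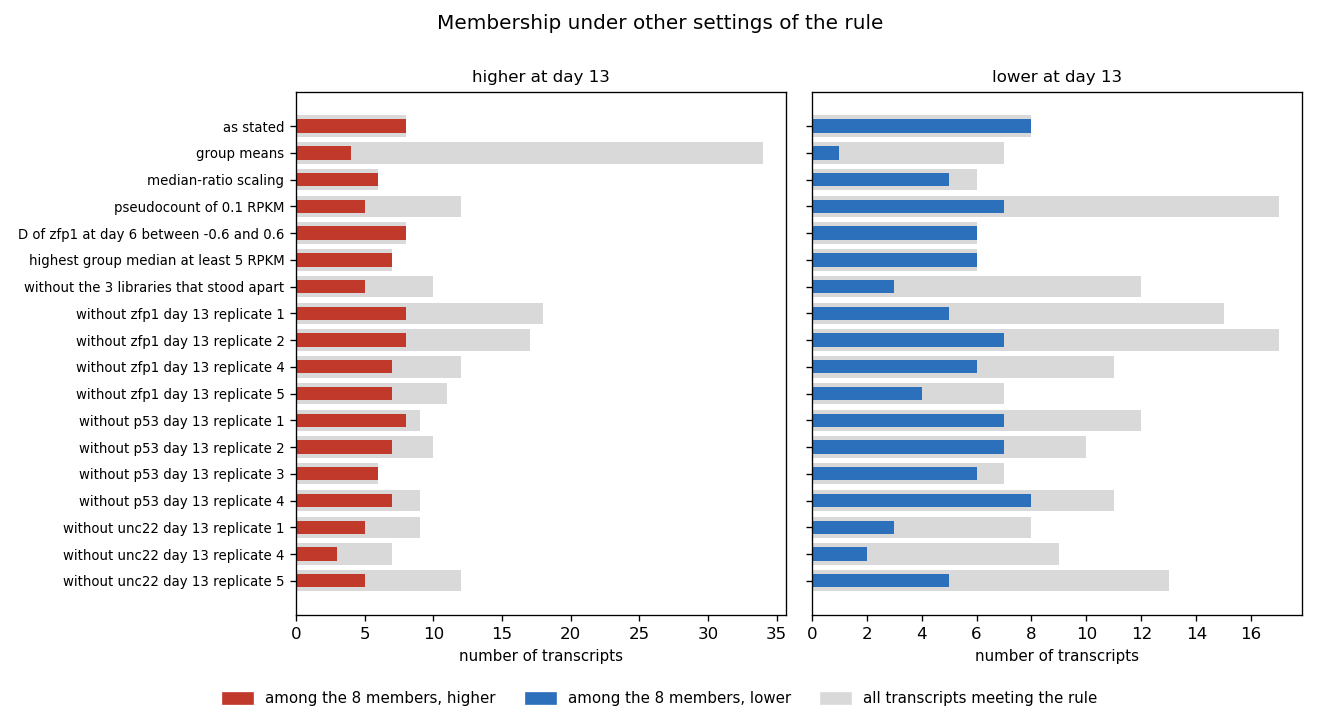
Number of transcripts that met the rule (x axis) under each setting (y axis), for transcripts higher (left) and lower (right) after zfp1 RNAi at day 13. Grey bars count all such transcripts and coloured bars those among the 16; without unc22 day 13 replicate 4, 3 of 8 and 2 of 8 remain.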

How the data were processed

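The authors deposited RPKM values for 25462 transcripts in 35 libraries of polyA RNA from X1 cells. Bowtie, CASAVA 1.8.2 and edgeR appear in the submitters' processing notes without their roles; the transcript assembly is not given in the sources used here. Groups, days and replicate numbers come from the labels. The 16 transcripts and the tests were chosen with earlier results of these data known.

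Whole reads were recovered with numpy 2.4.6 by finding a whole length for each transcript and a divisor for each library, and 100.0% of values came out whole within 0.01 reads. The recovery and the test were checked on simulated data. Differences were tested on log2(RPKM + 1) with limma 3.58.1 (R 4.3.3, trended variance). All 35 libraries entered 1 model of 9 group means. Fold changes on this scale understate those of weakly expressed transcripts. The filter required 1 RPKM or more in 3 libraries or more and left 19206 transcripts. Calls used Benjamini-Hochberg adjustment over these, at 0.05. For each direction the rule for named transcripts took the 2 largest D, the 2 largest called day 9 changes of zfp1 RNAi against the control and against p53 RNAi, the 2 largest day 9 changes of p53 RNAi and the 2 highest mean levels. The remaining members were named to account for all 16. Marker lists that need gene names could not be applied. Alternatives were other pseudocounts, no filter, median-ratio scaling, the day 9 libraries alone, a replicate block, limma-voom on recovered reads, and leaving out libraries.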

Additional observations from a re-analysis of the deposited data

Results flagged for a closer look

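In 15 of 128 groups of 4 libraries, 11.7%, a single library lay far from the other 3 for one of the 16 transcripts. Independent, normally distributed values would give about 1 group in 20. RPKM values need not be so distributed and the transcripts share libraries, so nothing is read from the difference. After zfp1 RNAi, SMED30012310 was at 4.63 RPKM in day 13 replicate 5, a library that stood apart, against 0.747 to 1.22 RPKM in the others. SMED30027845 was at 843 RPKM in day 13 replicate 4 against 106 to 145 RPKM. SMED30019532 was at 3.59 RPKM in day 13 replicate 1 against 5.00 to 5.21 RPKM, and SMED30017530 at 3.86 RPKM in day 9 replicate 1 against 2.36 to 2.58 RPKM.

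After p53 RNAi at day 13, SMED30023292 was at 12.9 RPKM in replicate 3 against 17.7 to 18.0 RPKM, and SMED30013311 at 6.13 RPKM in the same library against 12.3 to 13.0 RPKM. SMED30013526 was at 3.14 RPKM in replicate 2 against 4.53 to 4.62 RPKM, and SMED30021179 at 0.576 RPKM in replicate 1 against 1.77 to 1.95 RPKM. At day 9, SMED30011186 was at 24.8 RPKM in replicate 1 against 6.82 to 8.07 RPKM. At day 6, SMED30000746 was at 5.22 RPKM in replicate 1 against 2.55 to 2.95 RPKM, SMED30019532 at 1.72 RPKM in replicate 4 against 3.42 to 3.70 RPKM, and SMED30027845 at 1285 RPKM in replicate 2 against 105 to 219 RPKM.

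In the control, SMED30027845 was at 2728 RPKM in day 6 replicate 3 against 98.1 to 506 RPKM. At day 9, SMED30019109 was at 3.57 RPKM in replicate 1 against 1.55 to 1.71 RPKM, and SMED30021179 at 3.86 RPKM in replicate 4 against 2.79 to 2.95 RPKM.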

How the results depend on the processing

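For zfp1 RNAi against control at day 9, 621 transcripts were called, 970 without the 3 libraries that stood apart and 475 to 532 with 1 library left out. The higher set kept 3 to 4 calls with 1 library left out. The 1 call of the lower set was 0 in the day 9 libraries alone, without and with the replicate block, and 0 to 1 with 1 library left out. For p53 RNAi, 751 calls became 919 in the day 9 libraries alone and 1188 there with the block, 1811 without the 3 libraries and 541 to 734 with 1 left out. The 1 call of the higher set became 0 in the day 9 libraries alone, 2 there with the block, 2 without the 3 libraries, and 0 to 1 with 1 left out. Between the knockdowns, 23 calls became 29 in the day 9 libraries alone and 40 there with the block, 230 without the 3 libraries and 9 to 19 with 1 left out. The count was 13 without p53 day 9 replicate 4, and 9, 12 and 15 without zfp1 day 9 replicates 1, 2 and 4.

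For membership, 8 higher transcripts became 34 with group means and 6 to 18 with 1 library left out, and 8 lower ones became 17 with a pseudocount of 0.1 RPKM and 7 to 17 with 1 left out. For these shifts the cause was not tested. Of the 48 day 9 log2 fold changes, 14 turned in sign with 1 library left out, none of them called. Against control after zfp1 RNAi these ranged from -0.74 to 0.30 (SMED30011186), -0.49 to 0.24 (SMED30013311) and -0.22 to 0.0601 (SMED30019109). After p53 RNAi they ranged from -0.12 to 0.32 (SMED30003599), -0.32 to 0.86 (SMED30013311), -0.11 to 0.27 (SMED30017530), -0.35 to 0.0066 (SMED30019109) and -1.04 to 0.0402 (SMED30027845). Between the knockdowns they ranged from -0.0248 to 0.53 (SMED30000746), -0.16 to 0.71 (SMED30011186), -0.0211 to 0.15 (SMED30012310), -0.91 to 0.28 (SMED30013311), -0.14 to 0.22 (SMED30019109) and -0.94 to 0.14 (SMED30027845).

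The labels do not say whether replicate numbers pair the libraries, and the values did not settle it. The main fit treated the libraries as unpaired. Correlations of same-numbered deviations at day 9 were 0.03 to 0.61 for zfp1 and control, -0.01 to 0.35 for p53 and control and -0.39 to 0.47 for the knockdowns, and not every library correlated best with its own number. Transcripts with few reads, such as SMED30019109 and SMED30013311, carry wide counting errors.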
